A study of Drosophila melanogaster with 2 samples.

Results

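The neural RNA-binding proteins of the fly described here are 10 genes listed by name: elav, fne and Rbp9 of the ELAV family, msi and Rbp6 of the Musashi family, bru3 of the Bruno family, and shep, cpo, pum and mub. They were chosen by name and not by a measured value, though earlier results of these data were known. All 10 were found among the 17039 genes of the count table. The study applied scAIR, which reads RNA, open chromatin and chromatin contacts from crosslinked nuclei, to embryos of Drosophila melanogaster collected from 0 to 24 h, and deposited 1 RNA library and 1 library of accessibility and contacts. The RNA library was analysed here and the other was not. No genotype, strain, treatment or second condition was given, and how many embryos were pooled is unknown here, so the comparisons are between groups of nuclei within 1 library and have no replicate check.

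Proteins of these families bind short motifs in transcripts and set how those transcripts are spliced, where their 3' ends are made, how long they last and whether they are translated. Neurons use many such proteins: ELAV proteins favour neuron-specific splice forms and long 3' ends, Musashi and Pumilio proteins repress translation, and Bruno (CELF) proteins act in splicing and translation. The ELAV protein is the classic stain for postmitotic neurons of the fly, whereas Pumilio is known from many tissues, the early embryo among them.

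The library held 2233526 unique molecular identifiers (UMIs, each counting 1 captured RNA molecule) in 318 nuclei, with a median of 2969 and a range of 279 to 123309 per nucleus, and the 32 deepest nuclei held 48.5% of them. The 10 members together held 14389 UMIs. Nuclei were grouped into 10 clusters from the other genes, with all members left out of the grouping, and clusters were named by markers that include no member. Clusters 3 and 1 were neuron-like, with 43 and 26 nuclei, and together made up 21.7% of nuclei (exact binomial 95% interval 17.3% to 26.6%) and 12.5% of UMIs. Neuron-like nuclei were shallower than the other 249 nuclei, with a median of 1922 against 3316 UMIs, and ribosomal protein genes took 19.0% of their UMIs against 25.9%. The remaining named classes were somatic muscle-like (32 nuclei), epidermis-like (59 nuclei in 2 clusters, each also with 4 or 5 tracheal markers) and salivary gland-like (7 nuclei). Clusters 0, 2, 5 and 9 stayed unnamed. Of these, cluster 2 held the deepest nuclei (median 10175 UMIs), and cluster 0 was led by transcripts known from the oocyte, such as dhd and osk.

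The 20 neuronal markers described here are the list that named clusters 3 and 1. Their excess follows in part from the naming and is no separate check of the label. All 20 had UMIs in neuron-like nuclei, where they summed to 12000 counts in 1000000 UMIs (CPM), against 1878 CPM in all other nuclei. Cluster 3 stood at 15530 CPM and was more than 2-fold higher in all 20 markers, whereas cluster 1 stood at 4939 CPM and was more than 2-fold higher in 6, among them the vesicle protein nSyb and the transmitter transporters VAChT and VGlut. In cluster 1, 2 of the 20 markers were at least 2-fold lower: the sodium channel para, at 173 against 379 CPM, and Gad1, which makes the transmitter GABA, with 1 UMI. No leading gene of cluster 1 was a neuronal marker. The list was not at 0 elsewhere: all 20 markers had UMIs in muscle-like and epidermis-like nuclei, at 1857 and 1762 CPM, while cluster 0 had 777 CPM and cluster 2 had 2664 CPM. Markers of neural precursors were also higher in neuron-like nuclei, at 2005 against 942 CPM.

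Of the 10 members, 6 were at least 2-fold higher in neuron-like nuclei than in all other nuclei and 1 was at least 2-fold lower, counted on CPM with 10 added on both sides. Of the 7983 genes with at least 20 UMIs, 7.79% were at least 2-fold higher and 7.47% at least 2-fold lower by the same rule. All 10 members had at least 20 UMIs. The 6 higher members were Rbp6, fne, cpo, shep, bru3 and elav, the lower one was Rbp9, and msi, mub and pum were between these limits. The median log2 difference of the members was 1.28, against -0.05 over all genes tested. Folds printed from here on are plain ratios of CPM, with exact 95% intervals that cover counting error only and leave out the spread between nuclei.

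**Figure D1:**
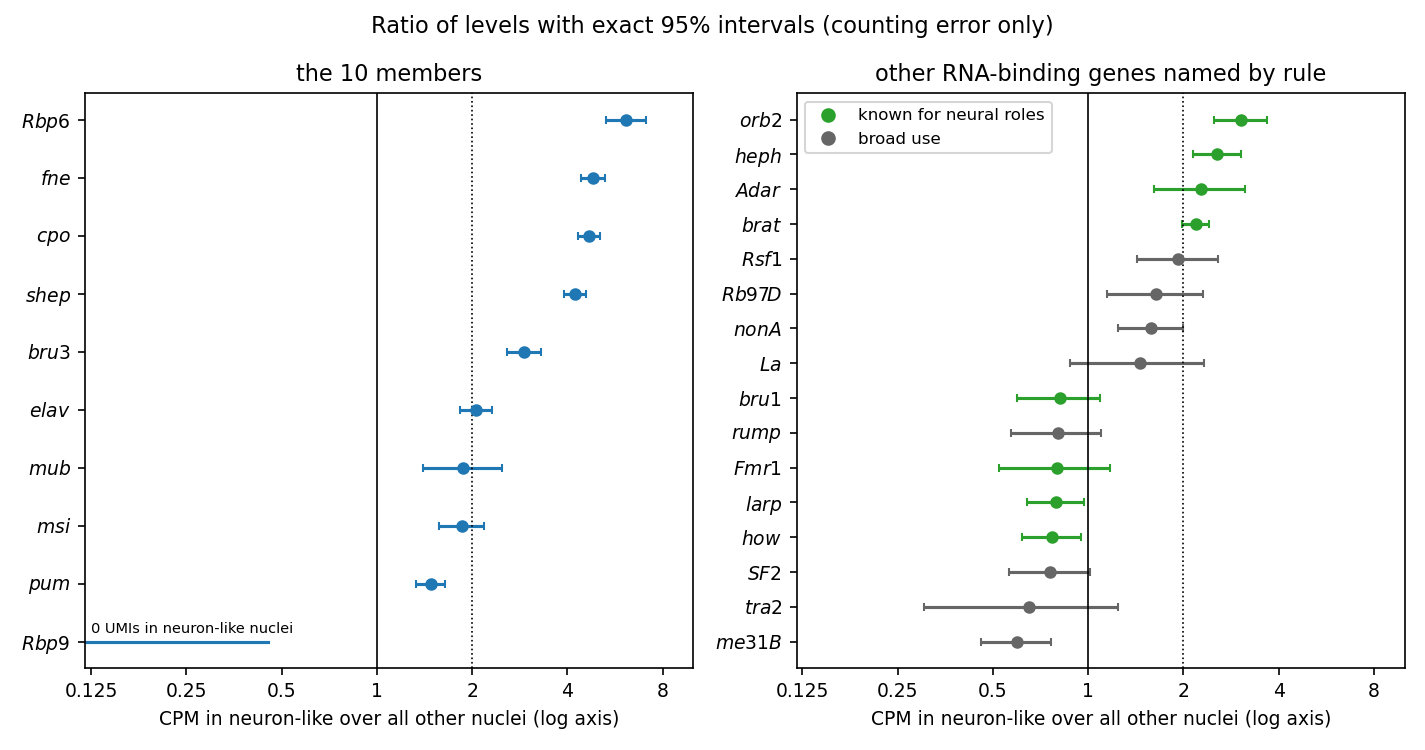
Ratio of the level in neuron-like nuclei over that in all other nuclei, on a log axis, for the 10 members (left) and for the RNA-binding genes outside the member list that were highest and lowest (right). Points are ratios of CPM, bars are exact 95% intervals for counting error only, the solid line is at 1 and the dotted line at 2. Members spread from 6.12-fold higher for Rbp6 to 0 UMIs for Rbp9, and the drawn broad-use genes from 1.93-fold for Rsf1 to 0.59-fold for me31B.

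The ELAV family split into a pair that was higher in neuron-like nuclei and a gene that was not found there. fne, the ELAV paralog known from neurons, had 2089 UMIs in 205 nuclei. Its level was 3055 CPM in neuron-like nuclei and 634 CPM elsewhere, a 4.82-fold difference (4.41 to 5.26). Single neuron-like nuclei held from 0 to 148 fne UMIs in 10000, with a median of 25.2, against a median of 1.96 and a highest value of 68.6 in the others. The ranges overlapped, since 5 of 69 neuron-like nuclei had no fne UMI and 141 of 249 other nuclei had at least 1.

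elav itself was less limited to neuron-like nuclei than fne. It had 1635 UMIs in 227 nuclei and stood at 1330 CPM in neuron-like nuclei against 647 CPM elsewhere, a 2.06-fold difference (1.83 to 2.31) whose interval includes the 2-fold limit. Neuron-like nuclei held 22.6% of all elav UMIs, against 40.7% of fne UMIs, in 12.5% of the library. Single neuron-like nuclei ranged from 0 to 78.3 elav UMIs in 10000 with a median of 11.4, and the other nuclei reached 83.7 with a median of 3.66. Both highest values came from shallow nuclei, with 3 elav UMIs in 383 and 7 in 836, so their order is within counting error. The ratio of elav was under 2-fold in 7 of 16 other settings (down to 1.44), and those of fne, Rbp6, shep and cpo were past 2-fold in all 16. Summed, elav and fne were 3.42-fold higher in neuron-like nuclei (3.19 to 3.67) and the other 8 members 3.20-fold (3.07 to 3.33). The intervals of these sums overlap, and their order changed with the setting. Without the nucleus richest in cpo the values were 3.58-fold for elav and fne and 2.87-fold for the other 8. That nucleus was picked for a gene of the second sum alone. Without the deepest nucleus of each class the values were 3.57 and 3.52, and without the highest doublet scores 3.66 and 3.77. No order between the sums is drawn.

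The level of elav outside neuron-like nuclei was compared with that of genes known from 1 tissue. In muscle-like nuclei elav stood at 50.3% of its neuron-like level, fne at 17.5% and the neuronal marker nSyb at 11.7%. In epidermis-like nuclei these were 45.3%, 18.2% and 14.7%. The muscle myosin Mhc stood in neuron-like nuclei at 5.25% of its muscle-like level. nSyb and Mhc are on the marker lists that named these classes, and no member is. Their low values outside their own class follow in part from the naming, so they are no even measure for elav and fne. RNA freed from broken nuclei can enter droplets of any nucleus, and its part in these values was not tested. The counts of elav and fne did not keep 1 ratio across groups: fne gave 2.30 UMIs for each elav UMI in neuron-like nuclei (2.03 to 2.60), 0.80 in muscle-like (0.66 to 0.96), 0.93 in epidermis-like (0.76 to 1.12), 1.20 in cluster 2 (1.07 to 1.35) and 0.62 in cluster 0 (0.48 to 0.79). Leaving out the deepest nucleus of each group gave 2.23 in neuron-like, 0.89 in muscle-like and 0.51 in cluster 0. For each UMI of the 20 neuronal markers, elav gave 0.07 UMIs in neuron-like cluster 3 (0.06 to 0.08) and 0.40 in neuron-like cluster 1 (0.33 to 0.47). The second value was near those of muscle-like nuclei (0.36, 0.31 to 0.41) and epidermis-like nuclei (0.34, 0.29 to 0.40). Cluster 0 had 0.92, cluster 5 had 0.09 and salivary gland-like nuclei had 0.07, from 3 elav UMIs, so this ratio did not set neuron-like nuclei apart.

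**Figure D2:**
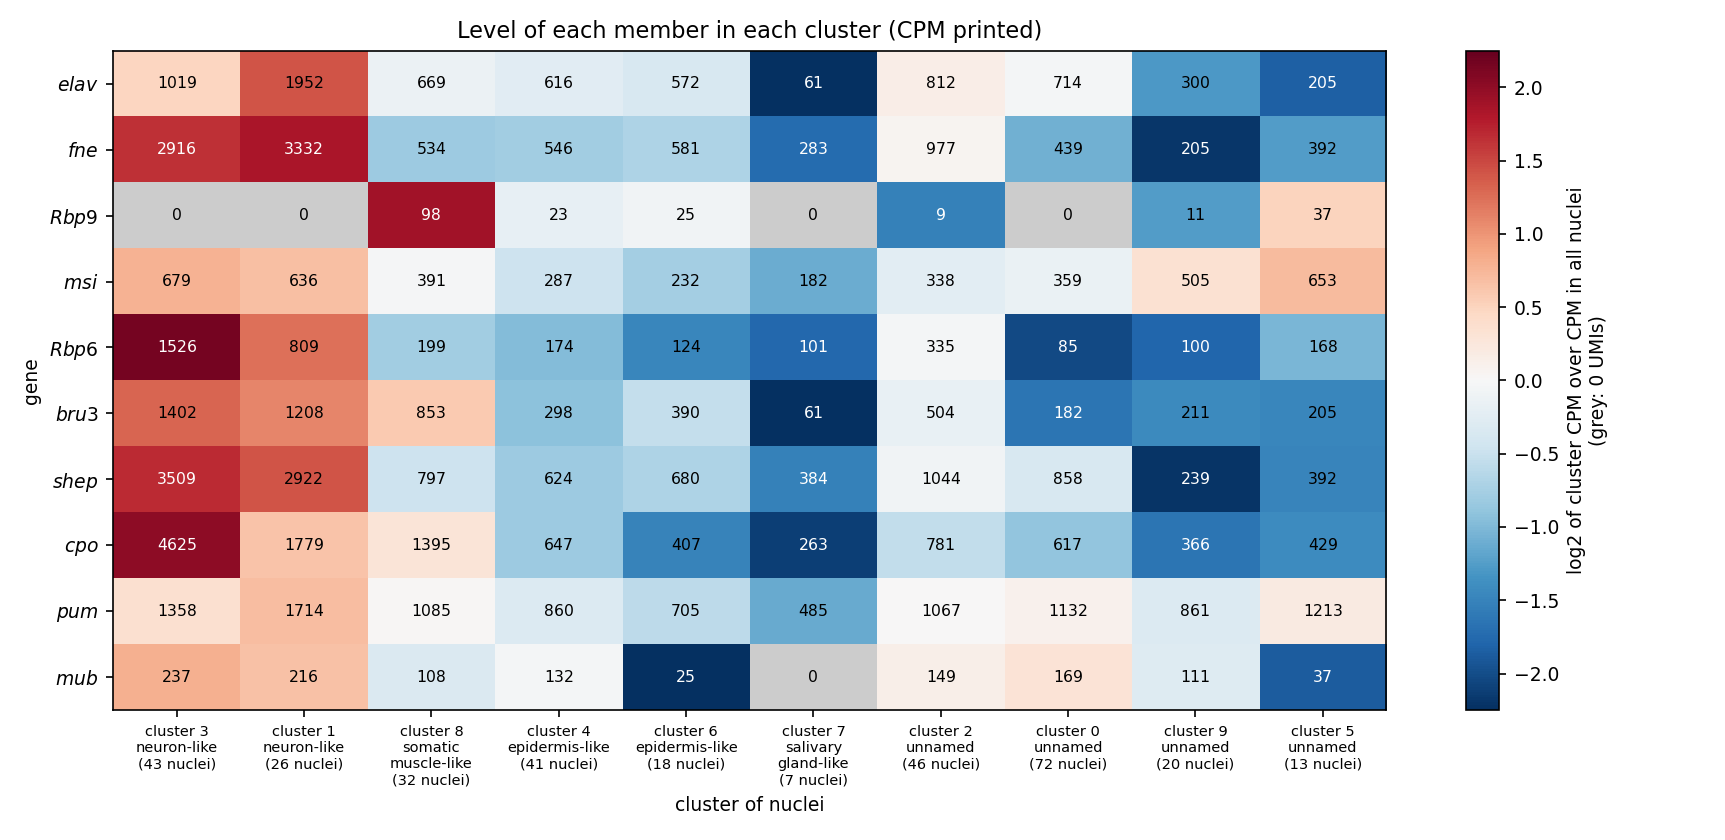
Level of each member (rows) in each of the 10 clusters (columns), with the CPM printed in each cell and the colour giving log2 of that CPM over the gene's CPM in all nuclei, from blue (lower) through white to red (higher), and grey for 0 UMIs. Clusters 3 and 1 are red for every member except Rbp9, which is at 0 in both and highest in the muscle-like cluster 8. Colours compare clusters within a gene and not genes with each other.

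Rbp9, the ELAV paralog known from the adult nervous system and the female germ line, was rare and was not found in neuron-like nuclei. It had 59 UMIs in 29 nuclei, none of them neuron-like. A count of 0 allows up to 13.3 CPM in neuron-like nuclei, below the 30.2 CPM of all other nuclei. Under other settings, with other nuclei in the class, its ratio reached 0.64-fold. Of the 59 UMIs, 40 lay in 15 of the 32 muscle-like nuclei, which made 98.4 CPM against 10.4 CPM in all nuclei outside that class, a 9.46-fold difference (5.35 to 17.3). It was the only member at least 2-fold higher in muscle-like nuclei and no member was lower, beside 4.36% and 7.78% of the 7983 genes. The deepest nucleus of the library, with 123309 UMIs, was muscle-like and held 8 of the 40, and without it 14 of the remaining muscle-like nuclei still held 32 UMIs. The gene Ts overlaps Rbp9 in the Release 6 annotation and had 40 UMIs of its own, 7 of them in muscle-like nuclei, and arg, which overlaps elav, had 41 UMIs. The sources used here do not say whether the counting used strand, so reads of these overlapping genes cannot be told apart here. Rbp9 had 0 UMIs as well in the 72 nuclei of cluster 0, which was led by oocyte transcripts, and a count of 0 allows up to 15.6 CPM there.

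The Musashi family also split. Rbp6 had the largest ratio of the 10 members: 1287 CPM in neuron-like nuclei against 210 CPM elsewhere, 6.12-fold (5.30 to 7.07), with 46.6% of its 769 UMIs in neuron-like nuclei. Single neuron-like nuclei ranged from 0 to 123 UMIs in 10000 with a median of 8.93, and the other nuclei had a median of 0 and reached 23.6. msi, which represses translation during the asymmetric divisions of sensory organ precursors, had 886 UMIs and stood at 665 against 359 CPM, 1.85-fold (1.57 to 2.18). Its levels in unnamed clusters 5 and 9 were 653 CPM (455 to 908) and 505 CPM (407 to 620), beside 679 CPM (566 to 809) in cluster 3 and 636 CPM (484 to 821) in cluster 1, so msi in neuron-like nuclei did not exceed that in cluster 5 beyond counting error. Clusters 5 and 9 were higher in 3 and 5 fat-body markers but were left unnamed. msi gave 0.52 UMIs for each Rbp6 UMI in neuron-like nuclei (0.43 to 0.62) and 1.71 in all other nuclei (1.51 to 1.93).

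bru3, a Bruno family gene, stood at 1337 CPM in neuron-like nuclei against 457 CPM elsewhere, 2.92-fold (2.58 to 3.30). The ratio was past 2-fold in 15 of 16 other settings, but fell to 1.5 with nuclei holding 3 or more neuronal markers as the class, and rose to 6.34 with nuclei weighed the same. A median neuron-like nucleus held 12.0 bru3 UMIs in 10000, with a range of 0 to 152, and the other nuclei had a median of 0 and reached 50.6. Muscle-like nuclei had the next level, 853 CPM, but 62.0% of it came from the 123309-UMI nucleus, and without that nucleus they had 466 CPM. The other Bruno genes were not like bru3 in this comparison: bru1 stood at 0.81-fold (0.60 to 1.09) and bru2 at 0.86-fold (0.52 to 1.36) in neuron-like nuclei. bru1, the repressor of oskar translation in the ovary, was among the genes that led cluster 0, at 587 CPM against 176 CPM in all nuclei outside it. bru2 and the values of bru1 in cluster 0 were picked after they were seen.

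shep, which acts in the remodelling of neurons after their first growth, was found in 68 of the 69 neuron-like nuclei. Its level there was 3314 CPM against 784 CPM elsewhere, 4.23-fold (3.89 to 4.59). Neuron-like nuclei ranged from 0 to 278 shep UMIs in 10000 with a median of 31.2, and the others had a median of 4.46 but reached 233. cpo, known from sensory organs and the peripheral nervous system, stood at 3677 against 787 CPM, 4.67-fold (4.31 to 5.06), but 1 nucleus carried much of this. That nucleus of cluster 3 had 29314 UMIs, 489 of them cpo, which was 47.8% of all cpo UMIs in neuron-like nuclei. Without it the difference was 2.73-fold (2.47 to 3.01), still past 2-fold. Without its own richest neuron-like nucleus no other member fell below 2-fold that had been above it, and the ratios were 2.22 for elav, 5.05 for fne, 6.33 for Rbp6, 3.19 for bru3 and 4.42 for shep. Muscle-like nuclei held 1395 CPM of cpo, of which 48.5% came from the 123309-UMI nucleus, and 1031 CPM without it.

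pum and mub had ratios under 2-fold. pum, which represses hunchback mRNA in the early embryo and sets the excitability of neurons, was found in 277 of 318 nuclei, more than any other member, at 1477 CPM in neuron-like nuclei and 999 CPM elsewhere (1.48-fold, 1.33 to 1.64). Its lowest and highest clusters were 485 CPM (salivary gland-like) and 1714 CPM (cluster 1), 3.53-fold apart, against 18.1-fold for Rbp6 and 16.2-fold for fne. Cluster 0 had 1132 CPM of pum and muscle-like nuclei 1085 CPM. mub, a protein with KH domains named for its expression in mushroom bodies, had 304 UMIs in 120 nuclei and stood at 230 against 123 CPM, 1.87-fold (1.40 to 2.48). It was found in fewer nuclei than every member but Rbp9, and its ratio was under 2-fold in 11 of 16 other settings and past it in 5, up to 2.61. In cluster 0, mub reached 169 CPM, but 20 of its 40 UMIs came from 1 nucleus.

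Beside these levels, members were counted against the 2-fold limit in epidermis-like nuclei and in cluster 0. In epidermis-like nuclei no member was at least 2-fold higher and 2 were lower, Rbp6 (158 against 382 CPM) and cpo (571 against 1265 CPM), where 4.71% of genes were higher and 6.89% lower. In cluster 0 no member was higher and 4 were lower, where 5.44% of genes were higher and 12.6% lower. These were Rbp6 (84.5 against 375 CPM), Rbp9 (0 UMIs against 29.5 CPM), bru3 (182 against 612 CPM) and fne (439 against 994 CPM). elav and pum in cluster 0 were at 0.97-fold (0.82 to 1.14) and 1.08-fold (0.95 to 1.23) of the nuclei outside it, with intervals that include 1.

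**Figure D3:**
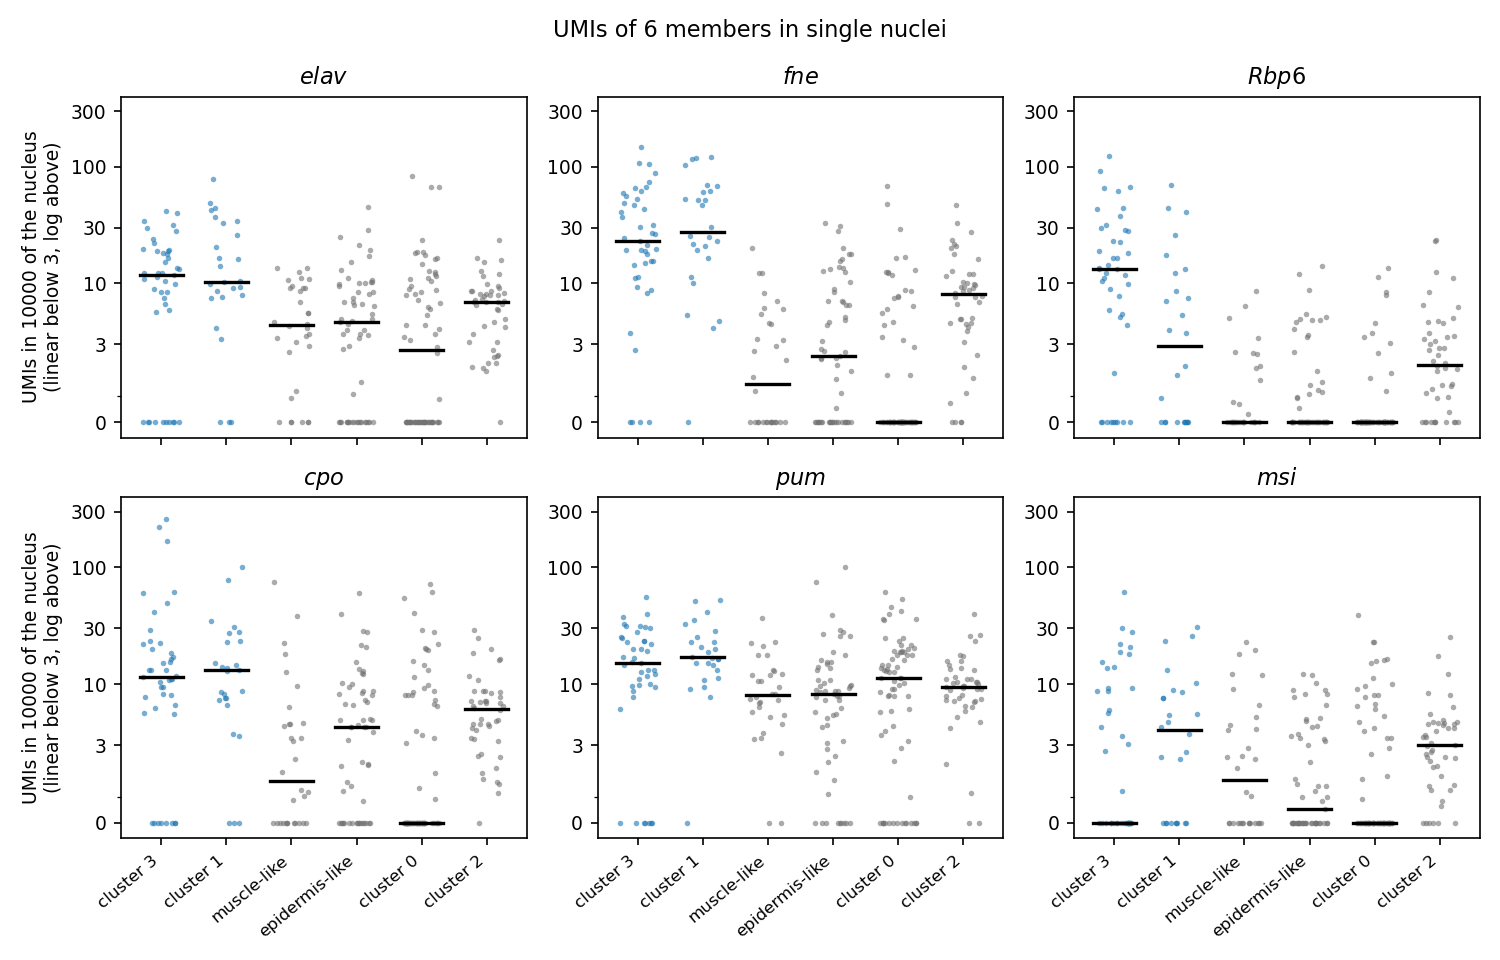
UMIs of 6 members in 10000 UMIs of each nucleus (vertical axis, linear below 3 and log above), for the clusters and classes named on the horizontal axis. Each point is a nucleus, blue for neuron-like, and bars are medians. fne and Rbp6 are lifted in clusters 3 and 1, pum is spread over all groups, and elav and cpo have high nuclei in several groups.

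A share of nuclei with a UMI depends on depth, so every nucleus was thinned by chance to 1000 UMIs, which left 270 nuclei (52 neuron-like) and dropped 48 shallower ones (17 neuron-like). At this depth fne was found in 80.8% of neuron-like and 34.9% of other nuclei, Rbp6 in 51.9% and 10.1%, bru3 in 61.5% and 18.8%, and shep in 92.3% and 44.5%. cpo was found in 80.8% and 35.8%, elav in 69.2% and 38.5%, and pum in 86.5% and 58.7%. The exact intervals of neuron-like and other nuclei did not overlap for these 7 members. They overlapped for msi, at 34.6% (22.0% to 49.1%) against 29.4% (23.4% to 35.9%), and for mub, at 9.62% (3.20% to 21.0%) against 8.72% (5.33% to 13.3%). Rbp9 was found in 0 of 52 neuron-like nuclei, which allows a share of up to 6.85%, and in 5 of 218 others. Before thinning, the shares for elav were 81.2% and 68.7%, and those for msi 55.1% and 58.6%.

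The same thinning gives shares for the markers nSyb and Mhc. Both helped to name classes, as no member did, so their contrast between classes follows in part from the naming. nSyb was found in 25% of neuron-like nuclei, 3.21% of all others and 0 of 30 muscle-like nuclei, and Mhc was found in 100% of muscle-like and 23.1% of neuron-like nuclei. The part that freed RNA has in such low shares was not tested. The share of muscle-like nuclei with elav was 33.3% (17.3% to 52.8%), and its interval includes the share of neuron-like nuclei with Mhc. elav was in 44.0% of epidermis-like nuclei, 42.6% of cluster 0 and 44.4% of cluster 2.

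**Figure D4:**
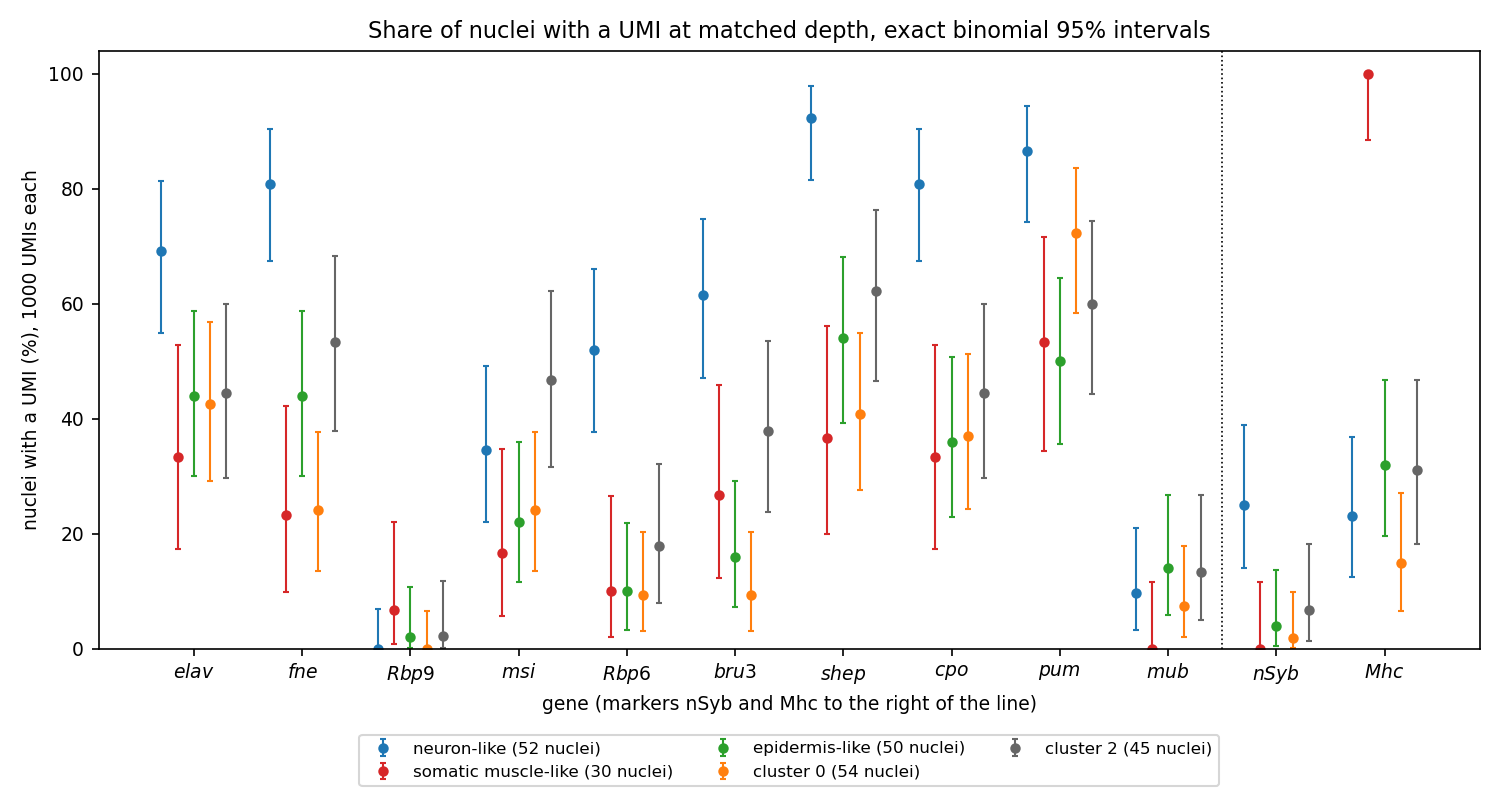
Share of nuclei with at least 1 UMI after every nucleus was thinned to 1000 UMIs (vertical axis, in percent), for the 10 members and, to the right of the line, the neuronal marker nSyb and the muscle marker Mhc. Points are shares in 5 groups of nuclei and bars are exact binomial 95% intervals. Neuron-like nuclei have the highest share for 7 members. Of these 7, the neuron-like intervals of elav, fne, bru3 and pum overlap that of another drawn group, and those of Rbp6, shep and cpo do not. For msi, mub and Rbp9 the intervals of the groups overlap.

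Co-detection was measured at the same depth as the number of nuclei holding a UMI of both genes, over the number that independence would give. elav and fne were found together in 72 of 270 nuclei, where 52.4 were expected, a ratio of 1.37. Part of such a ratio comes from the pooling of neuron-like with other nuclei, and with the expectation made within these groups it was 1.23 (58.4 expected). In neuron-like nuclei alone 30 held both where 29.1 were expected (1.03, 0.77 to 1.27), and in all other nuclei 42 where 29.3 were expected (1.43, 1.06 to 1.87). These intervals take the expected number as fixed, though it comes from the same nuclei, so they are too narrow to decide on independence. At this depth 57.7% of neuron-like nuclei held both (43.2% to 71.3%) and 7.69% held neither, against 19.3% and 45.9% of the others. pum and mub were seen together in 14 nuclei, where 15.4 were expected, a ratio of 0.91 that went to either side of 1 with the depth of thinning (0.87 at 500 UMIs, 1.04 at 2000).

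Of the 45 pairs of members, 35 had at least 5 nuclei expected, and 33 of these had a ratio above 1, with a median of 1.26. Within neuron-like and other nuclei 30 remained above 1 and the median was 1.08. The 15 pairs among the 6 members that were at least 2-fold higher ranged from 1.18 to 1.66, with bru3 and Rbp6 the highest. Within groups they ranged from 1.01 to 1.23, with elav and fne the highest. These 6 members were picked by their fold in the same counts, so pooled ratios above 1 follow in part from that choice. The 8 pairs of pum with members other than Rbp9 ranged from 0.91 to 1.13, and from 0.90 to 1.06 within groups. Pairs with mub rest on 24 nuclei. The highest ratio among the 35 pairs, 1.78 for msi and mub, came from 13 nuclei where 7.29 were expected.

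**Figure D5:**
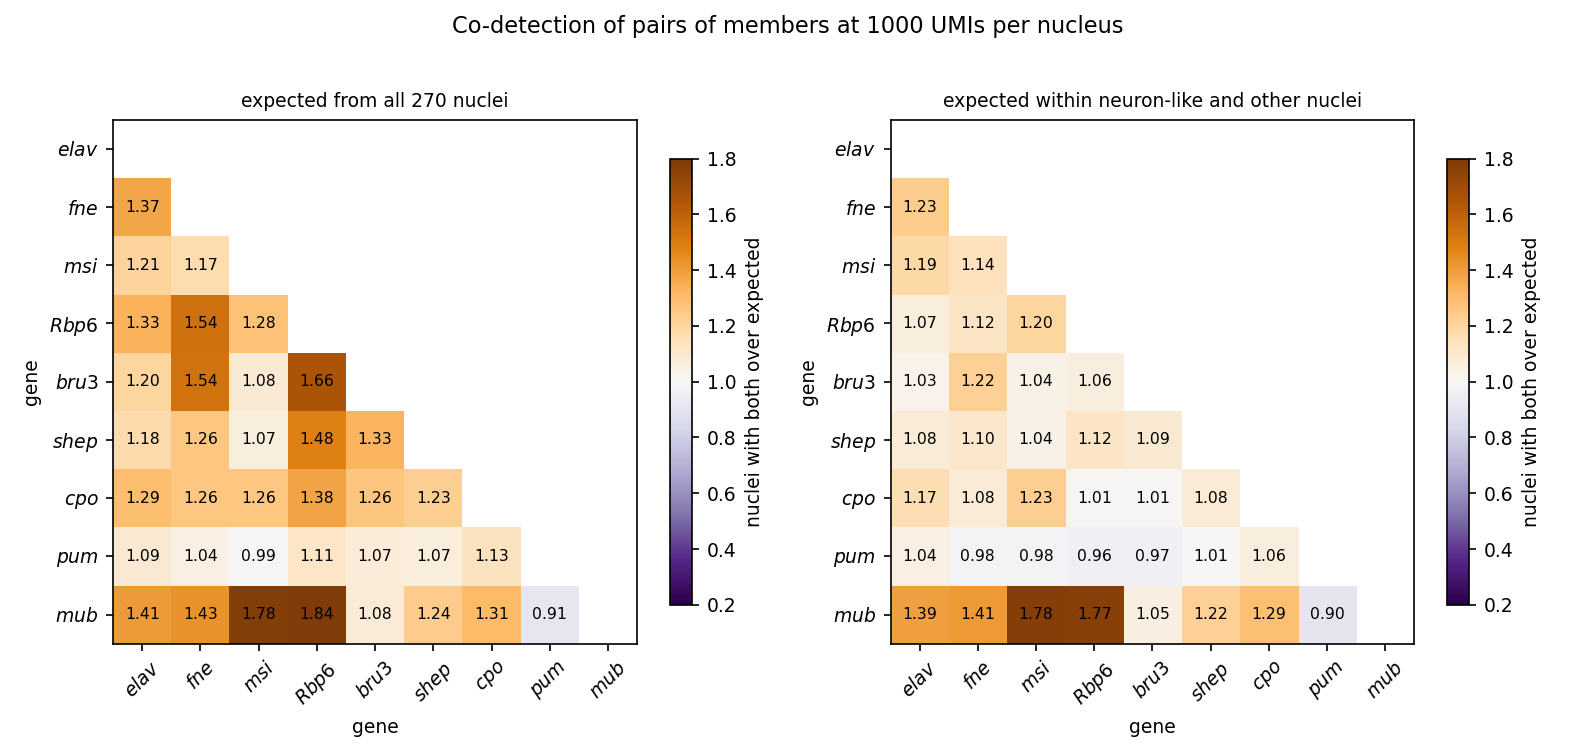
Nuclei with a UMI of both genes over the number expected from independence, for pairs of 9 members at 1000 UMIs per nucleus, with the expectation from all 270 nuclei (left) or made within neuron-like and other nuclei (right). Orange is above 1 and purple below. Rbp9, found in 5 nuclei at this depth, is left out. elav with fne falls from 1.37 to 1.23, and bru3 with Rbp6 from 1.66 to 1.06.

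Counted per nucleus, neuron-like nuclei held a median of 6 of the 10 members at 1000 UMIs (range 1 to 9) and the others a median of 3 (0 to 8). At least 5 members were found in 80.8% of neuron-like and 15.6% of other nuclei. Muscle-like nuclei had a median of 2, epidermis-like 2.5, and cluster 2, the unnamed cluster with the highest level of neuronal markers, a median of 4 with 35.6% of nuclei at 5 or more.

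The 2 neuron-like clusters differed in single members. cpo was 2.60-fold higher in cluster 3 than in cluster 1 (2.20 to 3.09), but 1.33-fold without its richest nucleus, and from 1.33 to 4.96 over 8 other settings. Rbp6 was 1.89-fold higher (1.46 to 2.47), under the 2-fold limit, but past it in 7 of the 8 other settings (1.33 to 4.29). elav was lower in cluster 3, at 1019 against 1952 CPM (0.52-fold, 0.42 to 0.64), while fne was at 2916 and 3332 CPM (0.88-fold, 0.76 to 1.01) and shep at 3509 and 2922 CPM. On CPM with 10 added, 1 member (cpo) was at least 2-fold higher and none lower, where 16.4% of all genes were higher and 14% lower. The direction for elav, fne, pum and shep changed with the clustering or the thinning, as given in the closing section, so no order between these clusters is drawn for them. fne gave 2.86 UMIs for each elav UMI in cluster 3 (2.42 to 3.40) and 1.71 in cluster 1 (1.42 to 2.06).

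Likeness of patterns was measured as Pearson's r of log-scaled levels across the 158 nuclei with at least 3000 UMIs, over 3646 genes with at least 100 UMIs. These points share 1 library and mix cell classes, so r is a description. Among genes outside the member list, fne was most like sm, an hnRNP protein (0.70), CG6024 (0.66) and fax, which acts in axon growth (0.65). With members left out, shep was most like Appl, the fly amyloid precursor protein (0.68), sm (0.65) and Mid1 (0.59). Appl and Mid1 were also among the 3 such genes most like Rbp6 and bru3, led by nrv3 (0.60) for Rbp6 and sm (0.58) for bru3. cpo was most like SP2353 (0.65), Appl (0.61) and VAChT (0.61). Again with members left out, elav was most like Imp, an mRNA-binding protein of neural precursors and young neurons (0.60), sbb (0.59) and X11Lbeta (0.58). No gene reached 0.5 with msi, pum or mub. Some pairs of members were more alike than these. fne stood at 0.70 with shep, 0.67 with elav and 0.61 with bru3, and Rbp6 at 0.64 with shep, each the highest value of elav, shep, bru3 and Rbp6 with any gene. elav stood at 0.49 with shep and 0.32 with Rbp6, and pum at no more than 0.30 with any other member.

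RNA-binding genes outside the member list were counted by the same rule. Of 31 further genes known for neural roles, 29 had at least 20 UMIs, 4 of these were at least 2-fold higher in neuron-like nuclei and none lower, beside 7.79% of all genes. They were orb2, a CPEB protein needed for long-term memory (3.03-fold, 2.51 to 3.66), heph, the polypyrimidine tract-binding protein (2.56-fold, 2.15 to 3.03), Adar, the enzyme that edits adenosines in neural transcripts (2.27-fold, 1.61 to 3.14), and brat, a repressor that works with Pumilio (2.19-fold, 1.99 to 2.41). The median log2 difference of the list was 0.30. The lowest were how (0.77-fold), larp (0.79-fold), Fmr1 (0.80-fold) and bru1 (0.81-fold).

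Of 29 RNA-binding genes of broad use, such as splicing factors, none was at least 2-fold higher or lower and the median log2 difference was 0.13. The highest were Rsf1 (1.93-fold, 1.43 to 2.56), Rb97D (1.64-fold), nonA (1.58-fold) and La (1.46-fold). The lowest were me31B (0.59-fold, 0.46 to 0.76), tra2 (0.65-fold), SF2 (0.76-fold) and rump (0.80-fold).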

How the data were processed

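RNA was measured in nuclei of 1 library of embryos. The deposited values are raw counts, whole numbers for each gene in each nucleus, as the values themselves show, and were read as UMIs because the labels name the 10x Genomics platform. The genome build was dm3, per the submitters' processing notes. The sources used here do not give the aligner, the counter, the use of strand or how barcodes were filtered. Depth ran from 279 to 123309 UMIs per nucleus, and counting error limits the precision of every value.

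All 318 nuclei were kept, and no barcode occurred more than once. Counts were scaled to 10000 UMIs per nucleus, log-transformed and clustered in scanpy 1.11.5 (Leiden in igraph 0.11.9, resolution 1.0, seed 0, 20 principal components, 10 neighbours, 2000 variable genes found in at least 3 nuclei, python 3.11.15). The 70 genes of the RNA-binding lists, members included, were left out of the variable genes. A cluster took the name of the marker list, of 13, with the most genes over 2-fold higher at 5 or more UMIs, if at least 3 passed and no list tied. Names were withheld from clusters 0, 5 and 9 because of their leading genes, after these were seen. Scrublet called 8 nuclei (2.52%) as doublets, which were kept. Sums of UMIs were compared as CPM. Intervals are exact at 95%: binomial for shares, Poisson for levels, conditional binomial for ratios of CPM or UMIs. Those of co-detection ratios are not exact: the binomial interval of nuclei with both genes was divided by the expected number, taken as fixed. Counts past 2-fold used CPM + 10 and genes with at least 20 UMIs. Nuclei are not replicates, so no p-values were computed. The CPM ratios and the co-detection ratio were tested on simulated Poisson counts with the class labels taken as given. Clustering, naming and the spread between nuclei were not tested in this way. CPM levels of different genes were not ranked, since no gene lengths of the build dm3 were used. Ratios of UMIs between genes were compared across groups of nuclei. Numbers and shares of nuclei with a UMI were set side by side for different genes, though they depend on the level of each gene.

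Named genes were all members, up to 3 genes most like each member with r of at least 0.5, the 4 highest and 4 lowest of each RNA-binding list, and markers. mub, msi and pum are named with no gene like them. Values of bru1 and bru2 outside that rule were added after they were seen. The members and lists were chosen with earlier results of these data known. Of 219 list entries, 215 matched by exact symbol and 4 by an older symbol. Alternatives are given in the closing section.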

Additional observations from a re-analysis of the deposited data

How the results depend on the processing

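No paired analysis was possible because the series has 1 RNA library and no replicate numbers. The 6 members past 2-fold became 4 to 8 over 18 other settings, and no member fold between neuron-like and other nuclei changed direction. The fold of elav and fne summed, 3.42, moved to 4.70 with nuclei weighed the same, 3.93 at 1000 UMIs, 3.04 at resolution 0.5, 2.38 with 15 and 2.98 with 30 components, 2.69 with seed 1, 2.13 with nuclei holding 3 or more neuronal markers as the class, 3.13 outside ribosomal protein genes and, added after seeing the data, 4.27 without cluster 2, 3.87 against named classes alone, 3.07 with cluster 3 alone and 4.13 with cluster 1 alone as neuron-like. For the other 8 members, 3.20 moved to 3.78 with nuclei weighed the same, 2.69 at resolution 0.5, 3.06 with 15 and 2.64 with 30 components, 2.34 with the marker class, 2.93 outside ribosomal protein genes, 3.42 without cluster 2, 3.56 with cluster 3 alone, 2.48 with cluster 1 alone, 3.52 without the deepest nucleus of each class, 3.77 without the highest doublet scores and 2.87 without the nucleus richest in cpo. The 4 other neural RNA-binding genes became 7 at 1000 UMIs, 2 with seed 1, 1 with the marker class, 2 outside ribosomal protein genes and 8 with cluster 1 alone. Between the 2 neuron-like clusters, elav turned to 1.29 with 15 components and 1.05 with seed 1, pum to 1.52 and 1.97, fne from 0.88 to 2.26 and 3.43 (and 1.08 at resolution 2.0), and shep to 0.95 at 1000 UMIs, so these directions do not hold. With 15 components and seed 1 the neuron-like class had 43 and 46 nuclei instead of 69, of which 35 and 40 were shared. Co-detection of elav and fne ranged from 1.16 to 1.38, and that of pum and mub from 0.87 to 1.10, on both sides of 1.

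Depth limits Rbp9 and mub, with 59 and 304 UMIs, most of all. With 1 library, embryo age, batch and the spread between embryos cannot be told apart from cell class. Rbp9 had UMIs in neuron-like nuclei under 3 settings, at up to 0.64-fold.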

Other observations

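Genes of the RNA-binding lists that were highest in other groups of nuclei were picked after their values were seen. mbl, the splicing factor known from muscle, stood at 2897 CPM in muscle-like nuclei against 868 CPM in all others (3.34-fold, 3.09 to 3.60). how, a Quaking-type protein needed in muscle, stood at 831 against 353 CPM (2.35-fold, 2.06 to 2.69), and Fmr1, the fly protein of the fragile X family, at 244 against 102 CPM (2.39-fold, 1.85 to 3.07). In cluster 0, which oocyte transcripts led, me31B and tral, partners in the repression of maternal mRNAs, stood at 917 against 335 CPM (2.74-fold, 2.34 to 3.20) and 1082 against 468 CPM (2.31-fold, 2.0 to 2.66). brat was 0.33-fold as high in cluster 3 as in cluster 1 (0.28 to 0.39), at 1191 against 3634 CPM. In that comparison 14% of all genes were at least 2-fold lower. Directions of some members between these clusters changed with the setting, and no other setting is given here for brat. The share of all genes at least 2-fold higher was 4.36% in the muscle comparison and 5.44% in that of cluster 0. The deepest muscle-like nucleus held 123309 of the 406571 muscle-like UMIs, and that of cluster 0 held 59253 of 236679. Values of these genes without those nuclei are not given here.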
